A study of Mus musculus with 8 samples.

Results

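The comparison described here sets adipocytes that carried an shRNA named for PRDM16 and received rosiglitazone against adipocytes that carried a control shRNA and received no drug. It rests on 4 of the 8 mouse arrays of the series, 2 titled prdm-Rosi and 2 titled scr-control. The cells were grown from the stromal-vascular (SV) fraction of fat from the inguinal depot, a white fat under the skin, in C57BL/6J male mice, and were differentiated into adipocytes in culture. The control group was untreated sh-scr cells, with no agent. The compared group was treated sh-PRDM16 cells, with the same strain and sex and rosiglitazone at 1 µM. The other 4 arrays, 2 of untreated sh-PRDM16 cells and 2 of treated sh-scr cells, entered the fit and are given beside the results. The 2 groups compared differ in both the shRNA and the drug, so a difference between them cannot be assigned to either alone. The question is which levels were at or above those of untreated control cells when the drug was present despite the shRNA, and which stayed apart. The series calls its 2 arrays a group biological replicates, but the labels used here do not say that they came from separate mice or cultures, so a p-value here reflects only how far these arrays differ, which may be technical. How many shRNA sequences were used, how the shRNA was delivered, the age of the mice and the hours of treatment are not given in these sources. The level of Prdm16 itself was not analysed here, because no probe set used was annotated to that gene alone, and the groups therefore rest on their labels.

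White fat stores lipid, whereas brown and beige fat burn it, through the mitochondrial uncoupling protein UCP1. PRDM16 is a transcriptional co-regulator that brown and beige fat cells use to turn on their thermogenic genes. PPARγ is the nuclear receptor that drives fat cell differentiation, and rosiglitazone, a thiazolidinedione, is its synthetic agonist. Thiazolidinediones are known to induce brown fat genes in cultured inguinal fat cells.

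The arrays were alike in quality. Median intensity per array lay between 100 and 135, the 2 arrays of a group correlated at r = 0.991 in all 4 groups, and the difference between 3′ and 5′ probe sets of actin was 0.31 and 0.3 (log2) in the control arrays and 0.33 and 0.34 after shRNA and drug. The median of all probe sets was 0.17 lower (-0.17, log2) in treated sh-PRDM16 than in untreated sh-scr arrays. All differences below are therefore given after each array's median was subtracted, on the scale of log2(intensity + 16), and results that turn on that step are marked. Adding 16 makes the difference of a dim gene smaller than that of its intensities. Of the markers that define the labelled cell type, Adipoq and Fabp4 were among the brightest genes on all 8 arrays, and the summed intensity of 8 adipocyte markers was 64528 and 65064 in untreated sh-scr, 48140 and 42277 in untreated sh-PRDM16, and 54410 and 58260 in treated sh-PRDM16 arrays.

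Treated sh-PRDM16 cells differed from untreated control cells at 2500 of 9294 genes tested. Of these, 1396 were higher (15% of genes tested) and 1104 were lower (11.9%), at a Benjamini-Hochberg adjusted p under 0.05. Among them 180 were higher and 199 lower by 2-fold or more, the median over all genes was 0.04 and the median standard error was 0.106 (log2). The split between rises and falls turned on the scale. On the deposited scale 423 genes were higher and 1256 lower, so that 25.2% of calls were rises in place of 55.8%, and after quantile normalization 1234 were higher and 1277 lower. On all 3 scales 422 genes were higher and 1034 lower. Each of the 4 arrays compared also mattered to the counts, with 863 higher and 614 lower without untreated sh-scr replicate 1, 768 and 654 without replicate 2, 653 and 646 without treated sh-PRDM16 replicate 1, and 766 and 675 without replicate 2.

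The genes were then placed by their level in untreated sh-PRDM16 cells, in which 1162 genes were below untreated sh-scr (12.5%) and 815 above (8.77%). Of the 1162 low genes, 212 (2.28% of genes tested) were above untreated sh-scr cells once the drug was present, 471 (5.07%) were no longer separated from them, and 479 (5.15%) were still below. Of the 815 high genes, 388 (4.17%) were still above with the drug, 412 (4.43%) were not separated and 15 (0.161%) were below. These counts are a description, since both differences use the same untreated sh-scr arrays. A gene that missed the threshold is not shown to be equal to control. Of the 471 low genes 397, and of the 412 high genes 349, had a 95% confidence interval of the difference inside 1.5-fold. So did 5289 of all genes tested (56.9%), and these 2 classes were drawn for missing the threshold on the same difference. Against untreated sh-PRDM16 cells, rosiglitazone raised 1348 (14.5%) and lowered 917 (9.87%) of all genes tested. It raised all 212 of the first class, 332 of the 471 and 45 of the 479, while 101 of the 479 fell further. The rise of the 212 was set by how the class was drawn and is no further support. The drug difference is what remains when 1 of the other 2 differences is subtracted from the other. Of the 212 genes above untreated control, 140 were nevertheless below treated sh-scr cells, as were 12.3% of all genes tested. The class sizes are sensitive to single arrays. The 212 became 89 and 81 without untreated sh-scr replicate 1 or 2, 123 and 129 without untreated sh-PRDM16 replicate 1 or 2, and 112 and 119 without treated sh-PRDM16 replicate 1 or 2, and the 479 became 287 and 228 without untreated sh-scr replicate 1 or 2. Without untreated sh-scr replicate 2 the 471 became 246, the 412 became 121 and the 388 became 152. The 15 became 0 to 6 when any 1 array was left out. On the deposited scale the 212 were 98, the 471 were 758, the 388 were 90, the 412 were 94 and the 15 were 1.

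**Figure D1:**
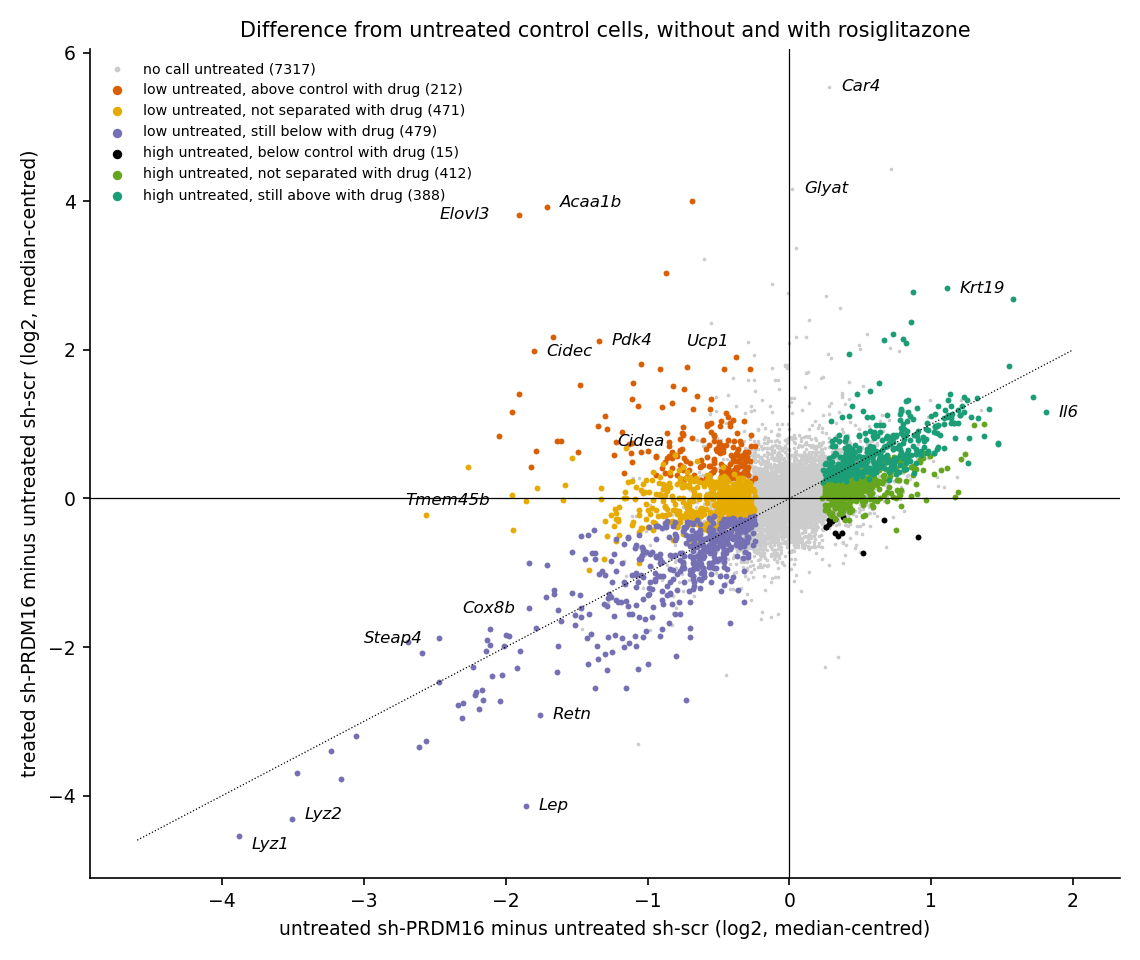
Log2 difference from untreated sh-scr cells in untreated sh-PRDM16 cells (horizontal axis) and in treated sh-PRDM16 cells (vertical axis) for 9294 genes, each difference of 2 arrays against 2, coloured by class; the dotted line marks equal differences. Elovl3, Acaa1b, Cidec and Pdk4 lie left of 0 and above 0, Lyz1, Lyz2, Lep and Retn lie left of 0 and below it, and Il6 lies right of 0 and above it.

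Of 23 thermogenic genes of brown fat tested, 11 were higher in treated sh-PRDM16 than in untreated sh-scr cells and 2 were lower, with a median of 0.54 (log2) against 0.04 over all genes. The 2 lower genes were Cox8b and Ebf2, and fewer were lower without untreated sh-scr replicate 1 or either treated sh-PRDM16 array. Ebf2 was at -0.38 (adjusted p = 0.0351) by its brightest probe set. Its other probe sets gave 0 and -0.25, and the mean of all of them gave -0.21 (adjusted p = 0.244). Ucp1, the uncoupling protein, had intensities of 5.2 and 20.6 in untreated sh-scr, 4.6 and 3.4 in untreated sh-PRDM16, 81.9 and 101 in treated sh-PRDM16 and 1296 and 1322 in treated sh-scr arrays. Both treated sh-PRDM16 arrays were above both untreated control arrays and far below both treated control arrays; over all genes, the arrays of the 2 groups compared did not overlap in 66.8%. The difference from untreated control was 2.11 ± 0.21 (log2, SE, adjusted p = 0.00139), and that from treated control was -3.76 (adjusted p = 0.00055). Cidea, which coats lipid droplets and is plentiful in brown fat, followed the same order at lower levels, with 14 and 24.2 in untreated sh-scr, 2.3 and 1.6 in untreated sh-PRDM16, 29.8 and 35.1 in treated sh-PRDM16 and 511 and 585 in treated sh-scr arrays. Its difference from untreated control was 0.65 ± 0.14 (adjusted p = 0.0198). That call was lost on the deposited scale (0.48, adjusted p = 0.0741) and without untreated sh-scr replicate 1 (0.48, adjusted p = 0.0815), treated sh-PRDM16 replicate 1 (0.66, adjusted p = 0.0793) or replicate 2 (0.63, adjusted p = 0.0831). Cox8b, a subunit of cytochrome c oxidase typical of brown fat and muscle, went the other way. It read 103 and 92.5 in untreated sh-scr, 5.2 and 20.5 in untreated sh-PRDM16 and 16.4 and 24.3 in treated sh-PRDM16 arrays. With the drug it was still below untreated control, by -1.48 ± 0.29 (adjusted p = 0.0135). The call was lost with a pseudocount of 1 (-2.04, adjusted p = 0.0589). It was also lost without untreated sh-scr replicate 1 (-1.38), treated sh-PRDM16 replicate 1 (-1.39) or replicate 2 (-1.57).

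Elovl3, which lengthens fatty acids in brown fat, had the largest difference of the list. Its intensities were 206 and 269 in untreated sh-scr, 39 and 46.9 in untreated sh-PRDM16, 2925 and 3398 in treated sh-PRDM16 and 4862 and 4855 in treated sh-scr arrays, so that treated sh-PRDM16 arrays exceeded untreated control by 3.82 ± 0.15 (adjusted p = 8.66e-05). Fgf21, a secreted metabolic hormone, rose from 7.1 and 21.3 to 269 and 241 and Fabp3, a fatty acid carrier, from 92.1 and 99.5 to 474 and 520, by 3.37 and 2.36. Ppargc1b, a co-activator of mitochondrial genes, rose from 129 and 168 to 619 and 663, by 2.18. Its relative Ppargc1a behaved differently, at 123 and 135 in untreated sh-scr, 42.5 and 45.8 in untreated sh-PRDM16 and 126 and 129 in treated sh-PRDM16 arrays. Its difference from control was 0.15, with a 95% confidence interval of -0.13 to 0.44, while treated sh-scr arrays read 365 and 399. Cox7a1, another cytochrome c oxidase subunit, read 458 and 525 in untreated sh-scr and 567 and 720 in treated sh-PRDM16 arrays, and its difference of 0.54 did not pass (adjusted p = 0.0575). It passed when the fit held only the 6 arrays of the groups compared (adjusted p = 0.0364), and with the lowest 50% of genes left out, a pseudocount of 64, a trended variance prior or the replicate block (adjusted p 0.00763 to 0.0344). Ppara, the fatty-acid-activated relative of PPARγ, was higher by 0.88 (adjusted p = 0.0275). That call was lost on the deposited scale (0.71, adjusted p = 0.0539) and with a pseudocount of 1 (1.09, adjusted p = 0.11). It was also lost without untreated sh-scr replicate 2 (0.59) or treated sh-PRDM16 replicate 1 (0.85) or 2 (0.91). Esrra, an orphan nuclear receptor that acts on mitochondrial genes, was higher by 0.78 (adjusted p = 0.00535). Ucp1 and Cidea were 2 of the 5 genes (0.0538% of genes tested) whose response to the drug differed between sh-PRDM16 and sh-scr cells by the interaction term. Dio2, which activates thyroid hormone, differed by -0.09, with an interval of -0.36 to 0.18.

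**Figure D2:**
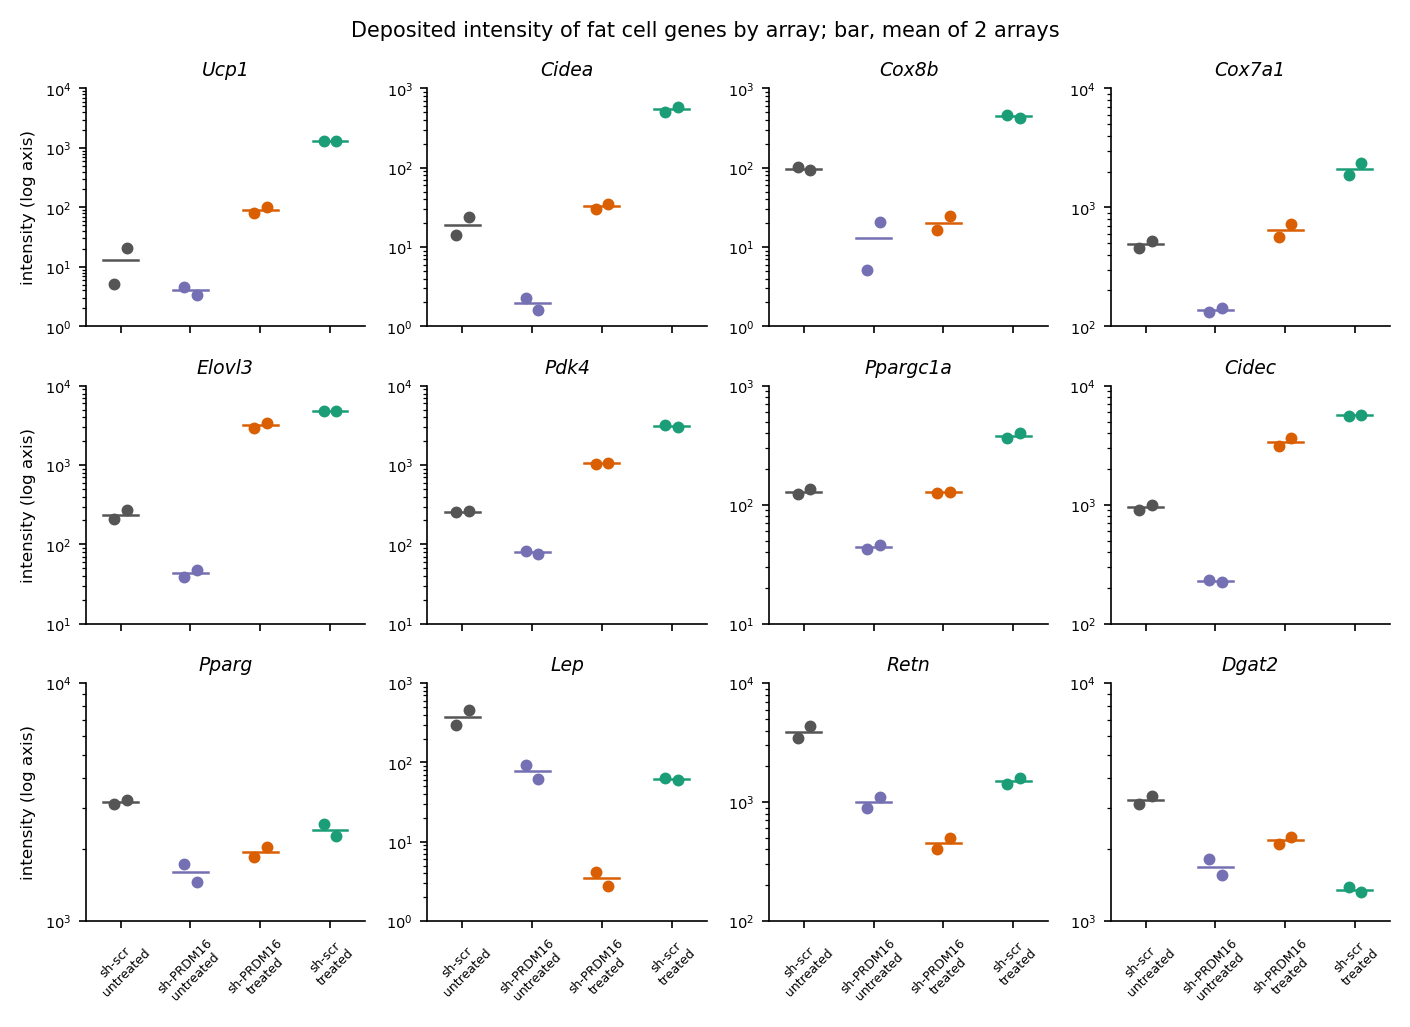
Deposited intensity (log axis, arbitrary units) of 12 fat cell genes on each of the 8 arrays, in the order untreated sh-scr, untreated sh-PRDM16, treated sh-PRDM16 and treated sh-scr; points are arrays and bars are means of 2. In the treated sh-PRDM16 arrays Ucp1 (81.9 and 101), Elovl3, Pdk4 and Cidec lie above untreated sh-scr, Ppargc1a (126 and 129) lies beside it, and Cox8b, Pparg, Lep, Retn and Dgat2 lie below it.

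Among targets of PPAR receptors, 25 of 36 genes tested were higher in treated sh-PRDM16 than in untreated control cells and 2 were lower, with a median of 0.68. Without any 1 array, 19 to 25 were higher, and 17 were on the deposited scale. In untreated sh-PRDM16 cells 23 of the 36 had been below control, and 17 of these 23 were above it with the drug. Acaa1b, a peroxisomal thiolase, read 396 and 521 in untreated sh-scr, 103 and 119 in untreated sh-PRDM16 and 6087 and 6648 in treated sh-PRDM16 arrays, a difference from control of 3.93 ± 0.15 (adjusted p = 8.18e-05). Pdk4, the kinase that shuts down pyruvate dehydrogenase, read 258 and 260.1, then 82.7 and 76.1, then 1019.7 and 1076 in the same order, a difference of 2.12 ± 0.07 (adjusted p = 4.59e-05). In neither gene did the 3 groups overlap, although treated sh-PRDM16 and untreated sh-scr arrays were apart in all 1396 genes called higher. Angptl4, a secreted inhibitor of lipoprotein lipase, was not separated from control in untreated sh-PRDM16 cells (-0.27) and was 1.25 higher in treated ones. Fabp4, the fatty acid carrier of fat cells, read 22736 and 21794 in control and 20917 and 21800 in treated sh-PRDM16 arrays, close to the brightest values measured. Its 0.11 comes from the brightest of 4 probe sets; the mean of all of them gave 0.67 (adjusted p = 0.0036). The 2 lower members were Vnn1 and Pck1, at -0.74 and -0.73, and 0 were lower without untreated sh-scr replicate 1 or either treated sh-PRDM16 array. For Pck1, which makes phosphoenolpyruvate for glyceride synthesis, the call was lost without any 1 of the 4 arrays compared (-0.66 to -0.8, adjusted p 0.0983 to 0.143), without either treated sh-scr array (-0.73, adjusted p = 0.0545) and in the replicate block (adjusted p = 0.0577).

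Of 30 genes of fatty acid oxidation, 22 were higher and 3 lower than in untreated control cells, with a median of 0.46. In untreated sh-PRDM16 cells 25 of the 30 were below control, and with the drug 18 of these 25 were above it. Hadha and Hadhb, the 2 subunits of the mitochondrial trifunctional protein, show the pattern. Hadhb read 3681 and 4481 in untreated sh-scr, 2500.1 and 2297 in untreated sh-PRDM16 and 6989 and 7485 in treated sh-PRDM16 arrays, a difference of 1 from control, and Hadha differed by 0.97. Slc25a20, the carnitine carrier of the inner membrane, was higher by 1.02, Acadvl, the very-long-chain dehydrogenase, by 0.97 and Mlycd, which removes the inhibitor malonyl-CoA, by 1.06. The 3 lower genes were Acadsb, Ivd and Oxct1, of which the former 2 act in branched-chain amino acid breakdown and Oxct1 in the use of ketone bodies. On the deposited scale 12 of the 30 were higher, and 13 without treated sh-PRDM16 replicate 1, the fewest when any 1 array was left out. Ehhadh, the peroxisomal bifunctional enzyme, read 178 and 192 in untreated sh-scr, 24.9 and 28.4 in untreated sh-PRDM16, 271 and 343 in treated sh-PRDM16 and 1516 and 1431 in treated sh-scr arrays. It was thus 0.84 above untreated control (adjusted p = 0.00416) and -2.34 from treated control.

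Of 11 acyl-CoA thioesterases tested, enzymes that release free fatty acids from coenzyme A, 8 were higher than in untreated control cells and 0 lower, on each of the 3 scales and without any 1 array, and the median was 1.1. Only Acot13 had been below control in untreated sh-PRDM16 cells. Acot3 read 29.6 and 7.4 in untreated sh-scr, 2.7 and 3.3 in untreated sh-PRDM16, 266 and 244 in treated sh-PRDM16 and 90.1 and 101 in treated sh-scr arrays. Acot1 read 16 and 17.6 in untreated sh-scr and 220 and 151 in treated sh-PRDM16 arrays, and Acot2 read 64.5 and 67.6 and 211 and 229. Their differences were 3.22 ± 0.32, 2.76 ± 0.35 and 1.69 (adjusted p = 0.00135, 0.00298 and 8.18e-05). For 6 of the 11 the treated sh-PRDM16 cells were also above treated sh-scr cells, and for 2 they were below. Over all genes tested these shares were 12.2% and 12.3%. Acot1 to Acot6 are close relatives in 1 gene cluster, so probe sets may read more than 1 of them.

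Genes of the mitochondrial energy machinery lay slightly above control with the drug, and here the scale decided the calls. Of 33 complex I genes 17 were higher and 0 lower (median 0.29), of 42 genes of complexes II to V 16 were higher and 2 lower (0.23), of 22 genes of the TCA cycle 14 were higher and 2 lower (0.43), and of 70 mitochondrial ribosomal proteins 31 were higher and 2 lower (0.24). On the deposited scale these were 1, 2, 1 and 6 higher, with medians of 0.12, 0.06, 0.26 and 0.07. Without untreated sh-scr replicate 2 or treated sh-PRDM16 replicate 1 the higher complex I genes were 5, and without treated sh-PRDM16 replicate 1 those of complexes II to V were 5; without untreated sh-scr replicate 2 the higher mitochondrial ribosomal genes were 15. In untreated sh-PRDM16 cells 20, 18, 17 and 25 genes of the 4 lists had been below control. Idh3a, a subunit of isocitrate dehydrogenase, read 4251 and 4509 in untreated sh-scr, 2657 and 2370 in untreated sh-PRDM16 and 6321 and 7243 in treated sh-PRDM16 arrays, a difference of 0.79 (adjusted p = 0.00129). Mrpl47, of the large mitochondrial ribosomal subunit, read 813 and 856, then 689 and 659, then 1602 and 1745, a difference of 1.16 (adjusted p = 0.000268). Sdha, a subunit of complex II, was instead still below control at -0.36 (adjusted p = 0.0172), a call lost without any 1 of the 4 arrays compared (-0.32 to -0.39, adjusted p 0.0541 to 0.0904).

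Of 16 lipid droplet proteins and lipases tested, 10 were higher and 0 lower, with a median of 0.58. Fewer were higher without either untreated sh-scr or either treated sh-PRDM16 array. On the deposited scale 5 were higher and 0 lower, and after quantile normalization 10 were higher and 1 lower. Cidec, which fuses lipid droplets, read 906 and 994 in untreated sh-scr, 235 and 222 in untreated sh-PRDM16, 3104 and 3648 in treated sh-PRDM16 and 5565 and 5697 in treated sh-scr arrays, a difference of 1.98 ± 0.08 from untreated control (adjusted p = 8.78e-05). Mgll, the monoglyceride lipase, was higher by 0.96 and Lipe, hormone-sensitive lipase, by 0.57. Plin5, a droplet coat protein of oxidative cells, was higher by 0.77 (adjusted p = 0.0138), but the call was lost without untreated sh-scr replicate 1 (0.67, adjusted p = 0.0724) or treated sh-PRDM16 replicate 2 (0.66, adjusted p = 0.0733), and on the deposited scale Lipe (0.4, adjusted p = 0.113) and Plin5 (0.6, adjusted p = 0.0705) both missed.

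General adipocyte genes split. Of 31 tested, 24 were below control in untreated sh-PRDM16 cells, and with the drug 9 of these were above control, 4 were not separated and 11 were still below, with a median over the list of -0.02. Over the whole list 10 were higher and 11 lower, a split that turned on the scale, with 4 and 11 on the deposited scale and 7 and 13 after quantile normalization. Of the list, 6 were higher without untreated sh-scr replicate 1 or treated sh-PRDM16 replicate 2, and 7 were lower without either of these or treated sh-PRDM16 replicate 1. Adipoq, which encodes adiponectin, read 14760 and 15191 in untreated sh-scr, 10994 and 9965 in untreated sh-PRDM16 and 13672 and 14230.4 in treated sh-PRDM16 arrays, with a difference of 0.07 and an interval of -0.13 to 0.26. Pparg itself stayed below, at 3116 and 3234 in untreated sh-scr, 1742 and 1461 in untreated sh-PRDM16 and 1865 and 2047 in treated sh-PRDM16 arrays (-0.53 ± 0.07, adjusted p = 0.00313). Cebpa, the partner of PPARγ in adipocyte differentiation, was at -0.37 (adjusted p = 0.0283), a call lost without untreated sh-scr replicate 1 (-0.39, adjusted p = 0.0858) or 2 (-0.35, adjusted p = 0.121), without treated sh-PRDM16 replicate 1 (-0.31, adjusted p = 0.137) or 2 (-0.43, adjusted p = 0.0631), and with no filter on dim genes (adjusted p = 0.0527). Dgat2, which makes triglyceride, read 3114 and 3339 in untreated sh-scr, 1819 and 1562 in untreated sh-PRDM16, 2115 and 2260 in treated sh-PRDM16 and 1383 and 1328 in treated sh-scr arrays. It was below untreated control (-0.39, adjusted p = 0.007) and above treated control (0.56, adjusted p = 0.00296). Irs1, an adaptor of insulin signalling, and Rbp4, the retinol carrier, were below control by -1.3 and -1.06.

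Of 16 genes selective for white fat tested, 7 were lower and 1 higher, with a median of -0.31, and 6 of the 7 had already been below control in untreated sh-PRDM16 cells. Lep, which encodes the satiety hormone leptin, read 294 and 463 in untreated sh-scr, 94.2 and 62.6 in untreated sh-PRDM16, 4.1 and 2.8 in treated sh-PRDM16 and 63.7 and 60.7 in treated sh-scr arrays. The 2 treated sh-PRDM16 arrays were below all 6 others, at -4.14 ± 0.2 from untreated control (adjusted p = 9.61e-05). Retn, the adipokine resistin, read 3475 and 4346 in untreated sh-scr, 899.9 and 1101 in untreated sh-PRDM16, 401 and 498 in treated sh-PRDM16 and 1419.6 and 1593 in treated sh-scr arrays, again lowest with shRNA and drug together (-2.91 ± 0.18, adjusted p = 0.000268). Sncg, a synuclein of white fat, read 1704 and 1846 in untreated sh-scr, 963 and 901 in untreated sh-PRDM16 and 178 and 291 in treated sh-PRDM16 arrays, a difference of -2.71 (adjusted p = 0.00034).

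Of 16 genes of fatty acid synthesis tested, 8 were lower than control and 1 was higher. Of the 16, 13 were low in untreated sh-PRDM16 cells, and with the drug 8 of these were still below, 4 were not separated and 1 was above. Without untreated sh-scr replicate 2 or treated sh-PRDM16 replicate 1 the lower genes were 4. Fasn, fatty acid synthase, read 6712 and 7176 in untreated sh-scr, 2935 and 2443 in untreated sh-PRDM16 and 3137 and 3614 in treated sh-PRDM16 arrays (-0.87, adjusted p = 0.00074), and Thrsp, a lipogenic regulator also known as Spot 14, read 1834 and 2184, then 265 and 294, then 358 and 466 (-2.08, adjusted p = 0.000374). The 1 higher gene was Acacb, the acetyl-CoA carboxylase at the mitochondrial surface, at 47.4 and 42.8 in untreated sh-scr, 3 and 3.5 in untreated sh-PRDM16 and 126 and 157 in treated sh-PRDM16 arrays (1.53, adjusted p = 0.000439). Cholesterol synthesis was mixed, with 3 higher and 8 lower of 19. Dhcr7, which makes cholesterol from its last precursor, rose by 1.77, while Pmvk, phosphomevalonate kinase, was at -0.53; the lower genes were 4 without treated sh-PRDM16 replicate 1. Of 20 genes of branched-chain amino acid breakdown, 16 were low in untreated sh-PRDM16 cells and 8 of those were still below control, among them Aldh6a1 at -1.28 and Dbt at -0.68; without untreated sh-scr replicate 1 or 2 or treated sh-PRDM16 replicate 2 the lower genes were 4.

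Some of the largest rises over untreated control were in genes for which untreated sh-PRDM16 cells were not separated from control. In all, 796 higher genes had no call in untreated sh-PRDM16 cells, and 495 of these rose with the drug in sh-PRDM16 cells. Car4, a membrane-bound carbonic anhydrase, had the largest rise of all genes tested on the scale of log2(intensity + 16). It read 33.1 and 48.5 in untreated sh-scr, 57.2 and 33.4 in untreated sh-PRDM16, 2362 and 2266 in treated sh-PRDM16 and 2166 and 2009 in treated sh-scr arrays, a difference of 5.54 ± 0.16 from untreated control (adjusted p = 4.33e-05). The 2 treated groups differed by 0.02, with an interval of -0.37 to 0.41. Glyat, a glycine N-acyltransferase, read 25.7 and 35.8 in untreated sh-scr, 704 and 754 in treated sh-PRDM16 and 335 and 271 in treated sh-scr arrays. It was 4.17 above untreated and 1.1 above treated control (adjusted p = 0.00011 and 0.0138), and 1 of its other 2 probe sets, a dim one, gave 0.63. Cyp4b1, a cytochrome P450, read 149 and 169.8 in untreated sh-scr and 1069 and 1214 in treated sh-PRDM16 arrays (2.89, adjusted p = 2.93e-05). Serpinb9g, of a large serpin cluster whose members probe sets may not tell apart, read 1.6 and 1.3 in untreated sh-scr and 306 and 335 in treated sh-PRDM16 arrays (4.43). Other large rises were in genes that untreated sh-PRDM16 cells did change. Aadac, a lipase of the endoplasmic reticulum, was low there (-0.69) and 4 above control with the drug. Krt19, a keratin, and Sema3e, a secreted guidance cue, were already high there (1.11 and 0.87). Krt19 read 96 and 139.9 in untreated sh-scr, 251 and 221 in untreated sh-PRDM16, 865 and 784 in treated sh-PRDM16 and 199 and 237 in treated sh-scr arrays, and Sema3e read 65.4 and 66, then 146 and 90, then 436 and 539, then 216 and 179. Both were highest with shRNA and drug together, at 2.83 and 2.78 from untreated and 1.72 and 1.11 from treated control. Krt19 is also an epithelial marker; of the 10 genes of the mesothelium and mammary epithelium list, 4 passed the filter on dim genes and Krt19 was the only one called. Summed over the 10, intensity was 232 and 328 in untreated sh-scr, 395 and 344 in untreated sh-PRDM16 and 1032 and 959 in treated sh-PRDM16 arrays, and Krt19 made up most of the treated sh-PRDM16 sums; the part of such cells in its rise was not tested.

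Genes low in untreated sh-PRDM16 cells and no longer separated from control with the drug included Tmem45b, Adig, Abcd2 and Rxrg. Tmem45b, a transmembrane protein, read 510 and 652 in untreated sh-scr, 70.6 and 74.8 in untreated sh-PRDM16, 432 and 442 in treated sh-PRDM16 and 2589 and 2293 in treated sh-scr arrays. Its difference from untreated control was -0.22, with an interval of -0.52 to 0.08, and from treated control -2.56. Adig, an adipocyte protein also called adipogenin, read 981 and 1056, then 259 and 237, then 909 and 1095 (0.14, interval -0.1 to 0.38). Abcd2, a peroxisomal transporter of fatty acids, read 419 and 462, then 127 and 106, then 347 and 427 (-0.02, interval -0.22 to 0.18). Rxrg, a partner of nuclear receptors, read 70.1 and 118, then 9.5 and 7.1, then 62.4 and 109, and the spread of its arrays left an interval of -0.73 to 0.82, so that its return to control is not settled.

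The 2 largest falls on the scale of log2(intensity + 16) were in lysozyme genes. Of these, Lyz2 is a gene of macrophages, the scavenger and antigen-presenting cells found in the stroma of fat. Lyz1 and Lyz2, the 2 lysozymes, read 5666 and 6329 and 3148 and 3308 in untreated sh-scr, 328 and 361 and 234 and 236 in untreated sh-PRDM16, and 203 and 222 and 121 and 139 in treated sh-PRDM16 arrays. They were at -4.55 ± 0.11 and -4.31 ± 0.1 from control (adjusted p = 2.93e-05 for each). The 2 genes are near-identical, so their probe sets may share signal and the 2 falls may not be separate. Of the other Lyz1 probe sets, a bright one gave -5.78. A dim one, with means of 30.8 in untreated sh-scr and 5.1 in treated sh-PRDM16 arrays, gave only -0.96. C1qa, C1qb and C1qc, the chains of complement C1q, read 179 to 229 in the untreated control arrays and 0.9 to 18.9 in treated sh-PRDM16 ones, with differences of -3.26, -2.78 and -3.4. Of 23 macrophage and leukocyte markers measured, 15 passed the filter on dim genes, and of these 11 were lower, 0 higher, with a median of -1.85. Their summed intensity over all 23 was 11276 and 12509 in untreated sh-scr, 7583 and 7337 in treated sh-scr, 1644 and 1581 in untreated sh-PRDM16 and 1370 and 1389 in treated sh-PRDM16 arrays. Both sh-PRDM16 groups were thus below both sh-scr groups, with or without the drug, but Lyz1 and Lyz2 made up most of the sh-scr sums. Averaged over the 23 on the median-centred log2 scale, levels were -0.54 and -0.29 in untreated and -0.43 and -0.43 in treated sh-scr arrays. They were -1.64 and -1.47 in untreated and -1.56 and -1.72 in treated sh-PRDM16 arrays. Of the 11 lower markers, 10 were low already in untreated sh-PRDM16 cells. The defining markers C1qc (0.9 and 1.5) and Itgam (1.6 and 3.6) were near 0 in treated sh-PRDM16 arrays, and Itgam was also dim in control arrays (8.8 and 6.3). Csf1r, the receptor of macrophage growth factor, did not follow, at 746 and 809 in control and 557 and 541 in treated sh-PRDM16 arrays (-0.32, not passing). Nor did some dimmer markers of the list. Cd74 read 53.8 and 47.8 in control and 65.1 and 52.4 in treated sh-PRDM16 arrays, and S100a8 read 153.1 and 125.3, then 149.1 and 134.7. In RNA from whole cultures, fewer cells of a type and less RNA per cell cannot be told apart. Other large falls were in genes that macrophages are known to express, among them Cd5l, Clec4d, Mmp12, Tyrobp, Fcgr3 and Fcer1g (-2.75 to -3.77).

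**Figure D3:**
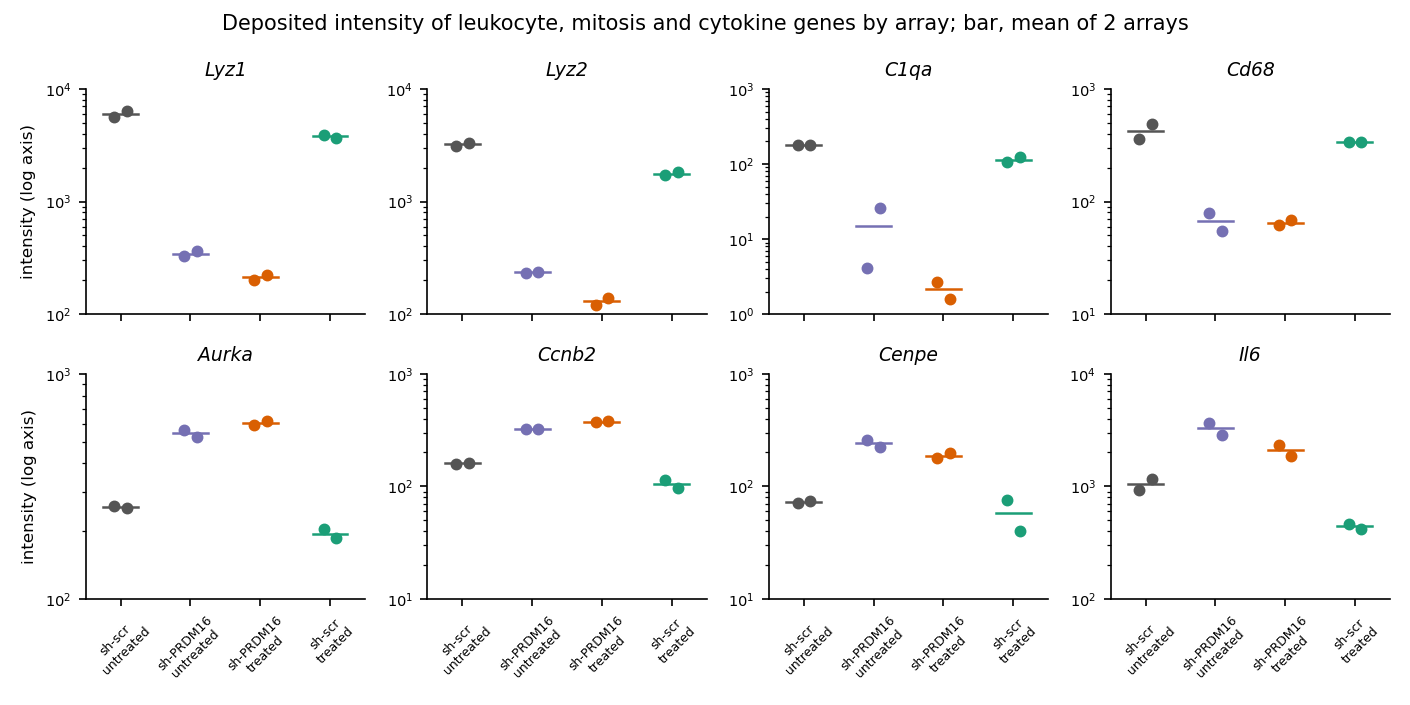
Deposited intensity (log axis, arbitrary units) of 8 genes on each of the 8 arrays, in the order untreated sh-scr, untreated sh-PRDM16, treated sh-PRDM16 and treated sh-scr; points are arrays and bars are means of 2. Lyz1, Lyz2, C1qa and Cd68 are low and Aurka, Ccnb2, Cenpe and Il6 are high in both sh-PRDM16 groups against both sh-scr groups.

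Of 11 acute-phase genes tested, 8 were lower than in untreated control cells and 0 higher, with a median of -1.45, and 3 of the 8 had been low in untreated sh-PRDM16 cells. Against untreated sh-PRDM16 cells, 6 of the 11 fell and 1 rose with the drug. Saa1, a serum amyloid, read 323 and 309 in untreated sh-scr, 355 and 311 in untreated sh-PRDM16, 58 and 34.4 in treated sh-PRDM16 and 31.5 and 32.7 in treated sh-scr arrays, a difference of -2.27 (adjusted p = 0.00102). Both treated groups lay below both untreated groups, and the treated groups differed from each other by 0.22, with an interval of -0.29 to 0.73. Cp, which encodes ceruloplasmin, read 2017 and 2660 in untreated sh-scr, 1227 and 1107 in untreated sh-PRDM16 and 440.4 and 486 in treated sh-PRDM16 arrays (-2.12). Steap4, a metalloreductase, stayed low from untreated sh-PRDM16 cells on, at 1780 and 2150 in untreated sh-scr, 313 and 282 in untreated sh-PRDM16 and 424 and 501 in treated sh-PRDM16 arrays (-1.88). Saa1 and Saa2 are near-identical and their probe sets may share signal. The part of macrophages in these falls was not tested.

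Of 44 collagens and fibrillar matrix genes, 12 were lower and 0 higher (median -0.07). Of the 44, 35 had an interval inside 1.5-fold, against 56.9% of all genes tested. Of 18 laminins and other basement membrane genes, 7 were lower and 0 higher (-0.18). The lower matrix genes were 6 without treated sh-PRDM16 replicate 2, and the lower basement membrane genes were 3 without that array or without untreated sh-scr replicate 2. Lum, the proteoglycan lumican, read 454 and 503 in untreated sh-scr, 456 and 404 in untreated sh-PRDM16 and 254 and 271 in treated sh-PRDM16 arrays (-0.66, adjusted p = 0.00172). Of 13 preadipocyte markers tested, 7 were lower and 1 higher, among them Pdgfra at 2042 and 2081 in untreated sh-scr and 819.9 and 930 in treated sh-PRDM16 arrays (-1.06) and Pdgfrb at -0.47. Their summed intensity, over 16 measured, was 22234 and 21613 in untreated sh-scr and 14169 and 16027 in treated sh-PRDM16 arrays. Endothelial markers summed to 1519 and 1714 and to 963 and 1067, with 4 of 11 lower (2 without untreated sh-scr replicate 2 or either treated sh-PRDM16 array), and smooth muscle and pericyte markers to 37700 and 36097 and to 31746 and 32276, with 2 of 12 lower; the part of these cells in the matrix result was not tested.

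Of 27 genes of inflammation tested, 5 were higher and 7 lower, against 15% higher and 11.9% lower of all genes tested. The higher share was thus near that of all genes. Fewer were higher without untreated sh-scr replicate 2 or either treated sh-PRDM16 array. Fewer were lower without either untreated sh-scr or either treated sh-PRDM16 array. Il6 read 932 and 1164 in untreated sh-scr, 3666 and 2865 in untreated sh-PRDM16, 2346 and 1870.1 in treated sh-PRDM16 and 462 and 420.4 in treated sh-scr arrays. It fell with the drug in sh-PRDM16 cells (-0.64, adjusted p = 0.0341) and stayed above untreated control (1.16 ± 0.16, adjusted p = 0.00425). Il11, a relative of Il6, and Cxcl1, a neutrophil chemokine, were above control by 0.73 and 0.89. Cxcl12, a chemokine of stromal cells, read 7053 and 6979 in untreated sh-scr and 3239 and 3462 in treated sh-PRDM16 arrays (-0.9), and Ccl9 and Cxcl13 were at -0.96 and -1.06. Of 30 interferon response genes 4 were lower and 0 higher, the lower share being near the 11.9% of all genes tested. Here untreated sh-PRDM16 replicate 2 stood apart. Ifit1 read 190.1 and 1550.3 in untreated sh-PRDM16 against 404 and 372 in untreated sh-scr and 185 and 241 in treated sh-PRDM16 arrays. Its difference of -0.66 did not pass with all arrays (adjusted p = 0.628) and passed when either untreated sh-PRDM16 array was left out (adjusted p = 0.0377), which left 8 of the 30 genes lower. Without untreated sh-scr replicate 2 or treated sh-PRDM16 replicate 1, 2 of the 30 were lower.

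Mitotic genes stayed above control as a block. Of 32 cell cycle genes tested, 31 were higher in treated sh-PRDM16 than in untreated sh-scr cells and 0 lower, with a median of 0.94, and 24 were higher on the deposited scale, on which the median was 0.77. The same 31 had been above control in untreated sh-PRDM16 cells, where the median was 0.89, and 0 of the 32 changed with the drug in sh-PRDM16 cells. Without untreated sh-scr replicate 2 or treated sh-PRDM16 replicate 1 the higher genes were 21. Aurka, a kinase of the spindle poles, read 259 and 253 in untreated sh-scr, 565 and 524 in untreated sh-PRDM16, 591 and 617 in treated sh-PRDM16 and 205 and 186 in treated sh-scr arrays, a difference of 1.36 (adjusted p = 0.000184). Ccnb2, a mitotic cyclin, read 159 and 160.4, then 321 and 320.4, then 371 and 379 in the first 3 of these groups (1.32, adjusted p = 0.000374). Cenpa, the histone of the centromere, read 279 and 300.3, then 689 and 561, then 640.2 and 693 (1.33, adjusted p = 0.00258). In none of the 3 genes did the sh-PRDM16 arrays overlap those of untreated control. For the treated arrays that held in all 1396 genes called higher, so it adds nothing to the call.

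Promoters of these 3 genes are shown because cell cycle genes moved together, and because their promoters often carry a short element named CHR, spelled TTTGAA, near the start site. The windows run from 250 bases before to 50 after the start, 5′ to 3′ on the gene's strand, from RefSeq (GRCm38.p6), and TTTGAA is in capitals.
Aurka, chr2:172370521-172370820, minus strand: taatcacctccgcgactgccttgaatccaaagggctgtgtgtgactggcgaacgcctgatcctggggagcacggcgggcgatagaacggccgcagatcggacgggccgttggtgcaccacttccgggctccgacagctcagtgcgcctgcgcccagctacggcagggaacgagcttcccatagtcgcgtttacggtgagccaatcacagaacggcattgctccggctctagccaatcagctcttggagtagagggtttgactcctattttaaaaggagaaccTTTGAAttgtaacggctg
Ccnb2, chr9:70421505-70421804, minus strand: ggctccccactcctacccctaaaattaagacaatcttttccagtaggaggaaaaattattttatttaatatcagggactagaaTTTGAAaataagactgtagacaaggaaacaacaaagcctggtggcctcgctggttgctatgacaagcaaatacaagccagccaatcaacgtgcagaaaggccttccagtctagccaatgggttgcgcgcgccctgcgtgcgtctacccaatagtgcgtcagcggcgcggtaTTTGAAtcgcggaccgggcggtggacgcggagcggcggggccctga
Cenpa, chr5:30666636-30666935, plus strand: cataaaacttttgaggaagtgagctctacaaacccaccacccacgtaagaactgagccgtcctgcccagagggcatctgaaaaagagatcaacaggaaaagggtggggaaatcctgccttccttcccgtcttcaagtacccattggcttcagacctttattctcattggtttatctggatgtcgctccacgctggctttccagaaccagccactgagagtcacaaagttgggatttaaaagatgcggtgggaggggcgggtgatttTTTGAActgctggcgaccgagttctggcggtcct
Aurka and Cenpa hold the element once and Ccnb2 holds it at 2 places. Of the 7511 tested genes with a window, 14% held TTTGAA on either strand, against 13 of the 26 cell cycle genes with a window (50%). The share was 24% among genes high in untreated sh-PRDM16 and still above control with the drug. That class includes 31 of the 32 cell cycle genes tested, so the 2 shares overlap. CCAAT was in 43% of all windows and in 84.6% of those of cell cycle genes. These shares describe letters in a window and not sites in use.

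Other genes that stayed above control included Crabp1, which binds retinoic acid, at 155 and 174 in untreated sh-scr, 469 and 426 in untreated sh-PRDM16, 538 and 530.4 in treated sh-PRDM16 and 176 and 143 in treated sh-scr arrays (1.78 ± 0.09, adjusted p = 0.000126). Has1, a hyaluronan synthase, read 72.6 and 94.9, then 229 and 204, then 183 and 193 in the first 3 groups (1.21, adjusted p = 0.00198). Among genes high in untreated sh-PRDM16 cells and no longer separated with the drug, Ptgs2, the inducible cyclooxygenase, read 2793 and 2402, then 5226 and 4429, then 3080 and 2916 in the same groups (0.38, interval 0.04 to 0.71, adjusted p = 0.0933), and passed with the lowest 50% of genes left out, with the mean of all its probe sets, with a trended variance prior and in the replicate block (adjusted p 0.0148 to 0.0367). Of the 15 genes that went from above to below control, Fxyd6, an ion pump regulator, read 162 and 153, then 211 and 193, then 82.8 and 69.8 (-0.74, adjusted p = 0.00765), and Mmp13, a collagenase, read 149 and 115, then 246 and 211, then 66.9 and 85 (-0.52, adjusted p = 0.041). The call of Mmp13 was lost without untreated sh-scr replicate 1 (-0.31, adjusted p = 0.122) and in each other fit with 1 array left out except that without untreated sh-scr replicate 2 (adjusted p 0.0617 to 0.172 in those that lost it).

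**Figure D4:**
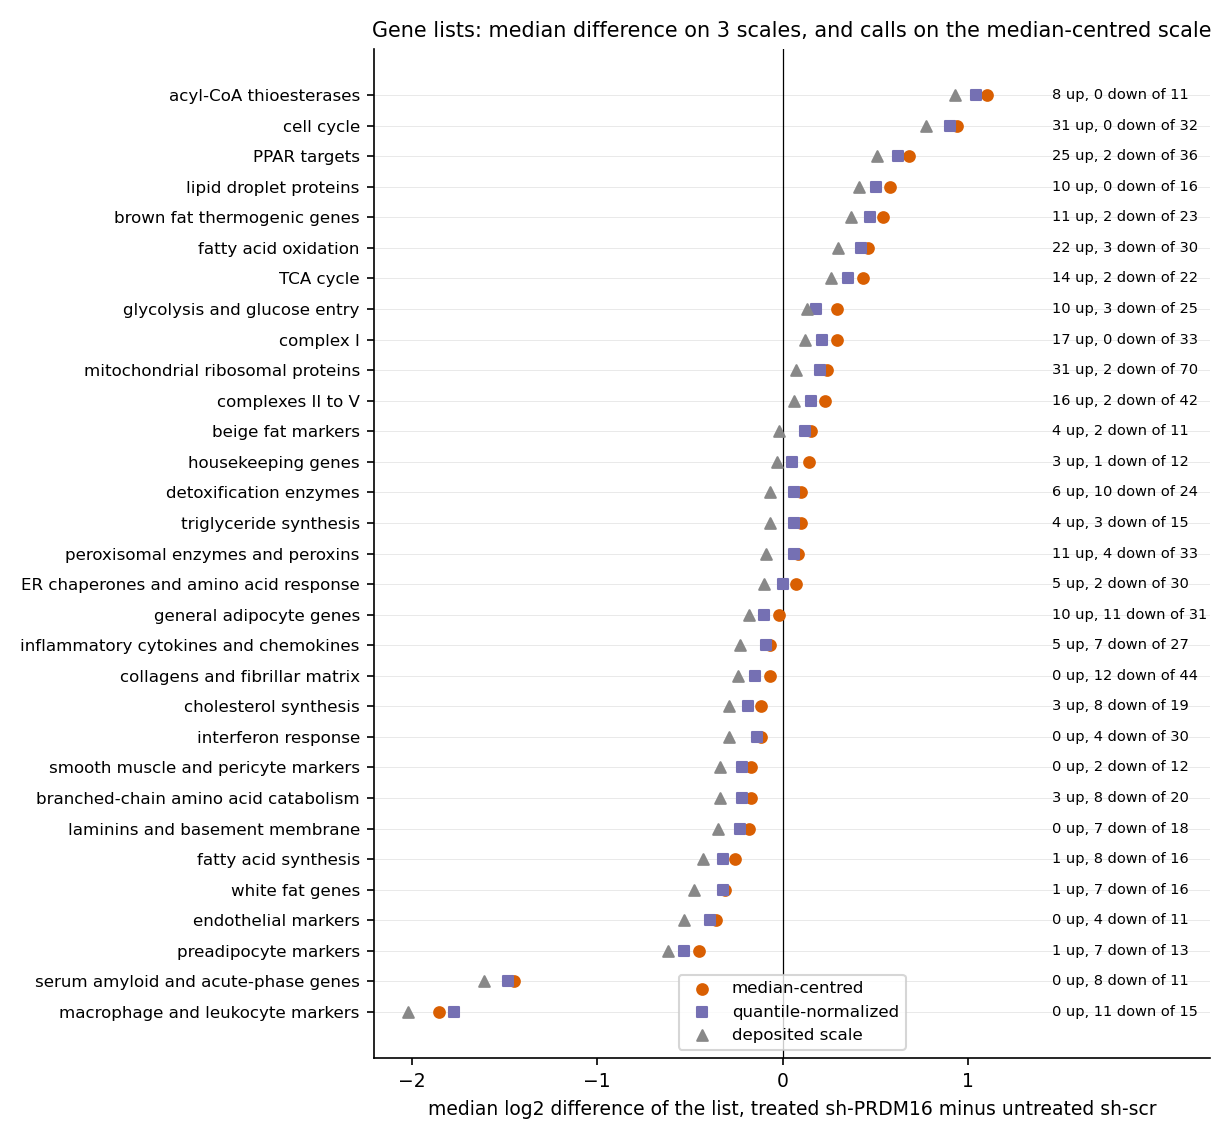
Median log2 difference between treated sh-PRDM16 and untreated sh-scr cells over the tested members of 31 gene lists (horizontal axis), on the median-centred, quantile-normalized and deposited scales; the text at right gives the members higher (up) and lower (down) on the median-centred scale. Acyl-CoA thioesterases, cell cycle genes and PPAR targets lie at the top, at 1.1, 0.94 and 0.68, and acute-phase genes and macrophage markers at the bottom, at -1.45 and -1.85.

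The plot of list medians orders the groups by their place against untreated control cells. A set of 12 housekeeping genes had a median of 0.14, or -0.03 on the deposited scale, with 3 members higher and 1 lower.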

How the data were processed

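RNA of 8 samples was read on Affymetrix mouse arrays, 2 arrays in each of 4 groups, grouped by their titles. Per the labels' protocols, RNA was extracted with Trizol and turned into biotin-labelled cRNA from oligo-dT-primed cDNA. The authors deposited linear intensities, 1 per probe set; the program that summarized them is not given in the sources used here. Precision is limited by having 2 arrays a group. From the deposited intensities, log2(intensity + 16) was taken and each array's median over probe sets was subtracted. Genes were named through GEO's platform annotation (20380 of 22690 probe sets with 1 gene, 691 with several, 1555 unnamed, 64 controls), the probe set with the highest mean stood for a gene, and the lowest 25% of 12393 genes were left out. Of these genes 12369 matched RefSeq. The linear model of limma 3.58.1 (R 4.3.3) was fitted to all 8 arrays, with Benjamini-Hochberg adjustment over the 9294 genes tested and a threshold of 0.05; the fit was tested on simulated data. By rule, the text names genes among the 15 largest called rises and the 15 largest called falls whose groups do not overlap, the 8 genes with the largest untreated knockdown difference in each of the 6 classes, a set of 28 tested fat cell genes, and in each list up to 6 members that differed most; any other gene was chosen after its values were seen. The members and lists were chosen with earlier results of these data known. Replicate numbers did not pair the arrays: deviations of same-numbered arrays correlated at -0.022 to 0.053. Alternatives covered the scale, the filter, the pseudocount, the choice of probe set, the variance prior, the arrays fitted, a replicate block, a stricter threshold and each array left out.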

Additional observations from a re-analysis of the deposited data

Results flagged for a closer look

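The response to rosiglitazone differed between sh-PRDM16 and sh-scr cells, by the interaction term of the limma fit, in 5 of 9294 genes (0.0538%), and 4 of them are among the genes covered here. Ucp1 rose with the drug by 2.4 in sh-PRDM16 and by 5.87 in sh-scr cells, a difference of -3.46 ± 0.3 (log2, SE, adjusted p = 0.0351). Cidea rose by 1.41 and 4.31, a difference of -2.9 ± 0.2 (adjusted p = 0.0216). Dgat2 rose by 0.35 in sh-PRDM16 cells and fell by 0.95 in sh-scr cells, a difference of 1.3 ± 0.09 (adjusted p = 0.0216). Lama5, a laminin chain, moved by -1.15 in sh-PRDM16 and 1.23 in sh-scr cells, a difference of -2.38 ± 0.2 (adjusted p = 0.0351). Its intensities were low, at 14.9 and 12.6 in untreated sh-scr, 41.3 and 44.1 in untreated sh-PRDM16, 7.1 and 15.2 in treated sh-PRDM16 and 44.7 and 37.3 in treated sh-scr arrays. The other Lama5 probe set, also dim, had means of 20.7 in untreated sh-scr, 8.6 in untreated sh-PRDM16 and 17.7 in treated sh-PRDM16 arrays. In untreated sh-PRDM16 cells it was at -0.29 from untreated control, against 1.17 for the probe set used, so the Lama5 result rests on that probe set alone. Each value rests on 2 arrays a group.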

How the results depend on the processing

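With 2 arrays a group, single arrays set how many genes are called. Leaving out 1 array at a time gave 653 to 1336 higher and 614 to 1068 lower genes. For genes low in untreated sh-PRDM16 cells it gave 81 to 197 above control, 244 to 521 not separated and 228 to 435 still below. For high genes it gave 0 to 6 below, 121 to 433 not separated and 152 to 367 still above. On the deposited scale 423 genes were higher, and of the classes 98 low genes were above and 758 not separated, and 1 high gene was below, 94 not separated and 90 still above. At an adjusted p under 0.01, 627 genes were higher and 524 lower, with 71, 242 and 228 low genes above, not separated and still below, and 0, 113 and 106 high genes below, not separated and still above. With no filter 137 low genes were above and 0 high genes below. With a trended variance prior 330 low genes were above, 36 high genes below and 606 still above. High genes below control numbered 30 after quantile normalization, 31 with the lowest 50% of genes left out, 6 with only the 6 arrays of the groups compared and 4 in the replicate block. The replicate block gave 1278 higher and 1018 lower genes, of which 1217 and 965 were called without it, although the numbers did not pair the arrays. Of 243 genes covered by the naming rule, 202 passed the threshold; 145 of the 202 kept that call under each alternative that tested them, and 0 changed direction; fewer of these genes were tested with the lowest 50% of genes left out, at a pseudocount of 1 and with the mean of all probe sets. The cause of these shifts was not tested, beyond the fewer arrays or other threshold that an alternative itself sets. Intensities under 16 made up 22 to 25.2% of values on an array, and differences of genes in that range have little precision.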
